A study of Mus musculus with 6 samples.

Results

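The genes described here mark the cells of blood vessels in the spinal cord: 8 genes of the endothelium, the layer that lines the vessel, and Pdgfrb of the mural cells wrapped around it. Members were all non-control probes whose gene name in the scanner files was Cldn5, Cdh5, Pecam1, Slco1a4, Abcb1a, Flt1, Kdr, Tek or Pdgfrb, which gave 9 of 27343 gene names, 17 of 41174 probes and 44 of 43379 spots per array. Each of the 9 genes had at least 1 probe well above background on all 6 arrays, and 14 of the 17 probes passed the filter of being well above background on at least 3 arrays. The samples were spinal cords of male C57BL/6 mice aged 8 weeks, 3 Dhtkd1 null and 3 wild-type, with 1 Agilent array each. Dhtkd1 encodes a mitochondrial 2-oxoacid dehydrogenase subunit used in lysine and tryptophan breakdown, and the labels give neither the null allele, nor the deleted part of the gene, nor whether a sample is 1 animal. The comparison of null with wild-type cords asks here whether vessel transcripts differ when Dhtkd1 is missing.

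In the spinal cord, as in the brain, capillary endothelial cells form the barrier between blood and nervous tissue. Claudin and cadherin junctions seal the gaps between the cells, efflux pumps and organic anion carriers control what crosses them, and VEGF and angiopoietin receptors keep the vessel alive and stable. Pericytes, recruited through PDGF signalling, sit on the outer face of the capillary and help to maintain that barrier.

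A 75th percentile of 950 to 1055 intensity units and 78.4% to 82.0% of spots well above background described the 6 arrays. Slide 1 carried null 1, 2 and 3 with wild-type 2, and slide 2 carried wild-type 1 and 3, so slide and genotype partly coincide. Differences within slide 1, 3 null arrays against 1 wild-type array, are therefore given as well. Dhtkd1 itself had log2 differences of -1.07 (limma adjusted p = 0.452 among genes) and -1.08 (limma adjusted p = 0.0922 among probes) at its 2 probes, with every null array below every wild-type array at both, and -0.78 and -1.07 within slide 1. Signal stayed well above background in null cords, and a probe outside the deleted part would check nothing about the labels.

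Flt1, which encodes VEGF receptor 1, is read by probes spread over a long stretch of chromosome 5 (mm9, minus strand). First 30 bases are shown for 4 of them, because the null and wild-type arrays separated at each, with estimates of unlike size. Whether the difference itself varied along the gene could not be decided. They stand in order from the 3′ side, at positions 148373791 to 148373850, 148373864 to 148373923, 148449781 to 148449840 and 148465976 to 148466035.
Flt1 A_51_P398723: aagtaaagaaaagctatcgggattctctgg
Flt1 A_52_P520859: cctgtattattccgattttaataatctaat
Flt1 A_52_P307922: caccaagctttgatggcattcaaagatgtc
Flt1 A_52_P405145: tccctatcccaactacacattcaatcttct
Slco1a4, an organic anion transporter of barrier endothelium, has 1 probe, on chromosome 6 at 141754675 to 141754734 (mm9, minus strand), shown because its null and wild-type arrays also separated.
Slco1a4 A_51_P335569: tatctcggtggatatgtgattgcctaatac
Pecam1, an adhesion molecule of endothelial junctions and of some blood cells, has 2 probes on chromosome 11 (mm9, minus strand), shown because just 1 of them gave a usable signal. The first matches 60 bases that lie across a span of 1854 bases, 106542389 to 106544242, and so is split on the genome, while the second lies without a break inside that span, at 106543058 to 106543117.
Pecam1 A_51_P400868: aacagcgagaagatttctgagcctagtgtg
Pecam1 A_52_P349070: taattagttcttacatcaaaccattctgaa

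The vessel genes as a group did not move in 1 direction. Of the 9 genes, 3 had a higher and 6 a lower mean in null than in wild-type cords, and the median log2 difference was -0.08, against 0.02 over all 21438 genes tested. Within slide 1 the split was 5 higher and 4 lower. No member passed an adjusted p of 0.05 by limma, as no gene did (0% of all genes and 0% of 33190 probes). At an unadjusted p under 0.05, 1 member was higher, Flt1, against 5.92% of all genes, and 1 was lower, Slco1a4, against 3.01%. With slide as a fixed block neither was under 0.05, with an unadjusted p of 0.165 and an adjusted p of 0.746 by limma for Flt1, and 0.0879 and 0.681 for Slco1a4. Flt1 was also not under 0.05 with median centring or without wild-type 1, null 2 or null 3, where the unadjusted limma p was 0.0506 to 0.0752 and the lowest adjusted p 0.414. The same 2 genes were those whose null and wild-type arrays did not overlap, where 9.66% of all genes were higher and 5.19% lower without overlap. Counted by probe, 3 of 14 were higher at an unadjusted p under 0.05 (5.51% of all probes) and 1 was lower (2.68%), and 4 were higher (9.49%) and 1 lower (4.84%) without overlap. All 4 of those higher probes belong to Flt1, so they are 1 gene read several times. In whole cord, fewer vessel cells and less RNA per vessel cell cannot be told apart.

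**Figure D1:**
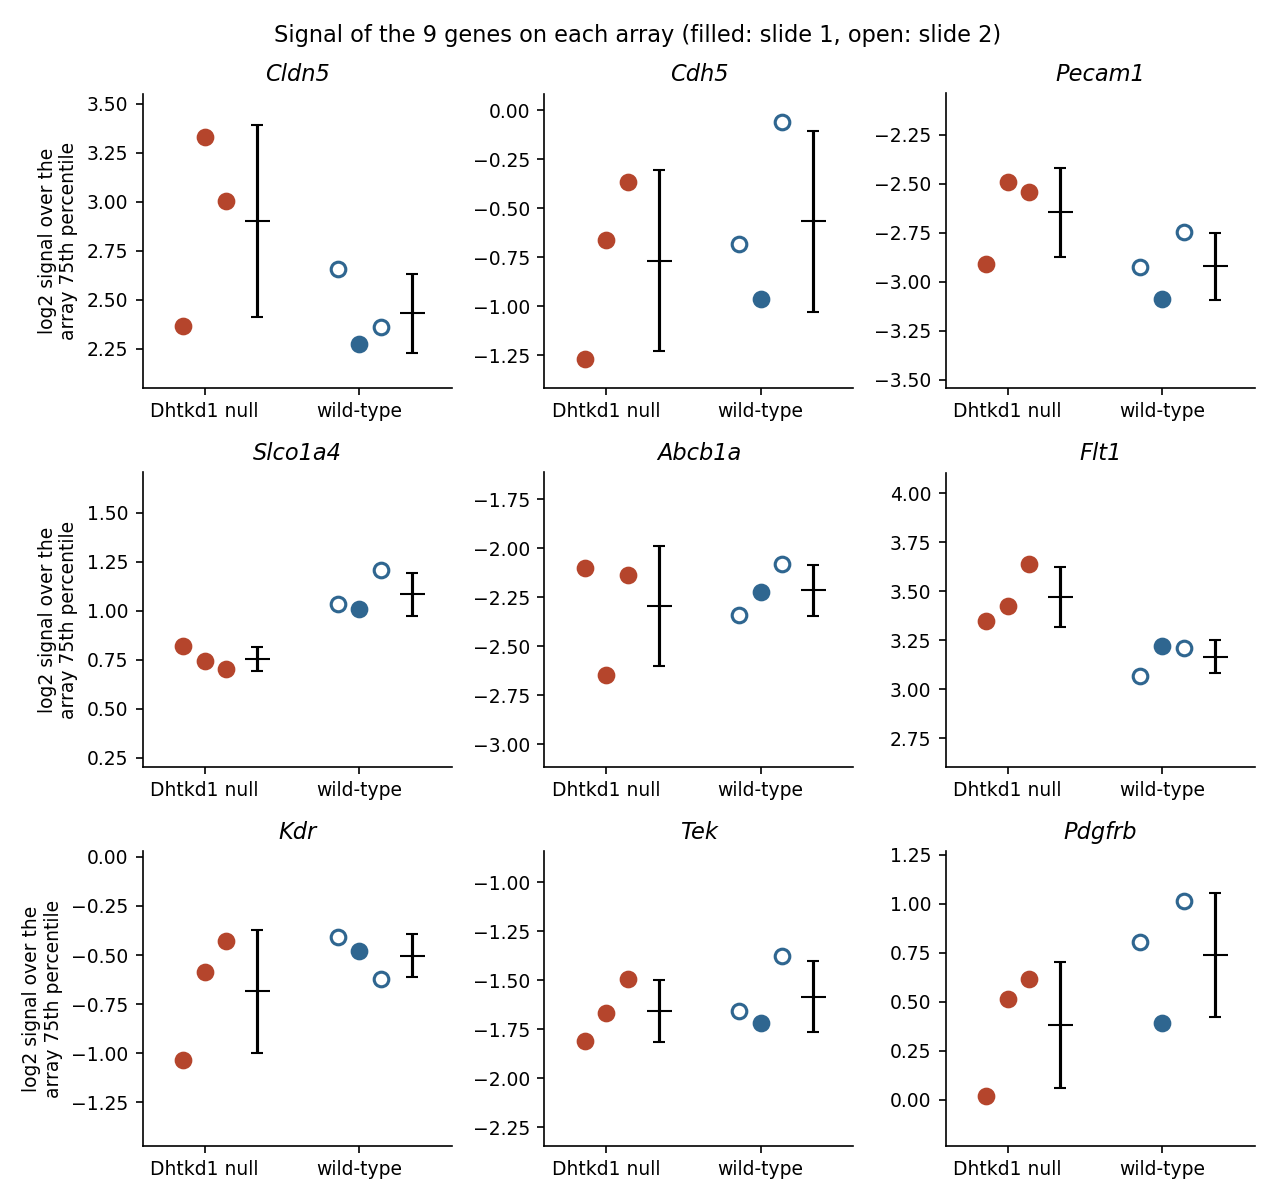
Signal of each of the 9 genes on every array at its brightest kept probe, as log2 processed intensity minus the array's 75th percentile, with each panel spanning 1.5 log2 units. Null arrays are on the left and wild-type on the right, filled points are slide 1 and open points slide 2, and the bar at the side of each group is its mean with the SD (n = 3). Null and wild-type points separate for Slco1a4 (null lower) and Flt1 (null higher), and null 1 is the lowest null array for Cldn5, Cdh5, Pecam1, Flt1, Kdr, Tek and Pdgfrb.

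Cldn5 encodes claudin 5, the main sealing protein of the endothelial tight junction. Its log2 signal over the array's 75th percentile was 2.37, 3.33 and 3.01 in null replicates 1, 2 and 3, against 2.66, 2.27 and 2.36 in wild-type replicates 1, 2 and 3. Null 2 and null 3 lay above every wild-type array, while null 1 lay within the wild-type range, so the groups overlapped. The log2 difference was 0.47 (SE 0.26, 95% interval -0.17 to 1.11, limma adjusted p = 0.636), and within slide 1 it was 0.63. It was 0.74 without null 1 and 0.26 without null 2. At 0.49, the SD among null arrays was larger than the 0.20 among wild-type arrays.

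Cdh5 encodes VE-cadherin, the adhesion protein of endothelial adherens junctions. At its brighter probe on chromosome 8 (mm9, 106668159 to 106668218) the log2 signal was -1.27, -0.66 and -0.37 in null cords and -0.68, -0.96 and -0.06 in wild-type cords. Wild-type 3 was the highest of the 6 arrays and null 1 the lowest, with the other arrays mixed between them. Null minus wild-type was -0.20 on the log2 scale (SE 0.32, 95% interval -0.98 to 0.58, limma adjusted p = 0.861), but 0.19 within slide 1. A second probe, 0.66 kb upstream, gave -0.28 over all arrays and 0.24 within slide 1, so at both probes the sign within slide 1 was opposite to that over all arrays.

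Pecam1 had 10 repeated spots per array at the probe whose match is split on the genome. The log2 signal was -2.91, -2.49 and -2.54 in null cords, against -2.92, -3.09 and -2.75 in wild-type cords. Null 2 and null 3 were the highest arrays, and null 1 lay among the wild-type arrays. Null minus wild-type came to a log2 difference of 0.27 (SE 0.15, 95% interval -0.09 to 0.64, limma adjusted p = 0.630), and 0.44 within slide 1. Repeated spots on an array scattered by an SD of 0.03 to 0.11, less than the SD between arrays of a group (0.23 in null and 0.17 in wild-type). The unsplit Pecam1 probe was well above background on 1 array, wild-type 1, and gives no fold.

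The transporters differed from each other. Slco1a4 had a log2 signal of 0.82, 0.74 and 0.70 in null cords, against 1.04, 1.01 and 1.21 in wild-type cords. Every null array was below every wild-type array, and the SDs were 0.06 in null and 0.11 in wild-type. This gave a log2 difference of -0.33 (SE 0.08, 95% interval -0.54 to -0.12), or 1.26-fold lower in null, with an unadjusted p of 0.00829 and an adjusted p of 0.435 by limma. Within slide 1 it was -0.25. Abcb1a encodes a P-glycoprotein, the efflux pump that returns many drugs to the blood. Its log2 signal was -2.10, -2.65 and -2.13 in null cords and -2.34, -2.22 and -2.08 in wild-type cords. Null 2 was the lowest array, and null 1 and null 3 lay inside the wild-type range. The log2 difference was -0.08 (SE 0.17, 95% interval -0.50 to 0.34, limma adjusted p = 0.898), -0.07 within slide 1 and 0.10 without null 2.

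Flt1 was higher in null cords at every probe that passed the filter. VEGF receptor 1 binds VEGF-A strongly but signals weakly, and a shortened soluble form acts as a decoy for the ligand. The probe nearest the 3′ end had a log2 signal of 3.35, 3.43 and 3.64 in null cords, against 3.07, 3.22 and 3.21 in wild-type cords. All 3 null arrays were above all 3 wild-type arrays. Their log2 difference was 0.30 (SE 0.10, 95% interval 0.05 to 0.56), or 1.23-fold higher in null, with an unadjusted p of 0.0258 and an adjusted p of 0.519 by limma, and within slide 1 it was 0.25. The neighbouring probe, 0.07 kb upstream, gave 0.21 (SE 0.10, limma adjusted p = 0.642), and 0.18 within slide 1. Its null and wild-type arrays did not overlap either.

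The probe 76.0 kb upstream of the 3′ one read 1.44, 1.80 and 2.02 in null cords, against 1.18, 1.30 and 1.21 in wild-type cords. The lowest null array stayed above the highest wild-type array. This probe had a log2 difference of 0.52 (SE 0.15, 95% interval 0.14 to 0.90, limma unadjusted p = 0.0149, adjusted p = 0.545), a 1.44-fold higher signal in null, and 0.46 within slide 1, where a fixed slide block gave an unadjusted p of 0.110. The probe farthest upstream, 92.2 kb away and taken by the array design from the transcript AK005502, read -5.34, -4.71 and -4.77 in null cords, against -6.25, -5.92 and -6.32 in wild-type cords. All null arrays were again above all wild-type arrays, at a signal close to background. The log2 difference was 1.22 (SE 0.20, 95% interval 0.72 to 1.72, limma unadjusted p = 0.00103, adjusted p = 0.342), or 2.32-fold higher in null. It was 0.97 within slide 1 and 0.27 with normexp background correction, which here added a constant of 50 intensity units to every spot. The other Flt1 probe, 83.3 kb upstream, was well above background on 1 null array and no wild-type array, and gives no fold.

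Each array's signal at the other Flt1 probes was also set against its own signal at the 3′ probe. This comparison was chosen after the values were seen, so its p-values cannot decide whether the difference varied along the gene. For the farthest probe, the offset from the 3′ probe was -8.69, -8.14 and -8.42 in null cords, against -9.32, -9.14 and -9.53 in wild-type cords. The groups did not overlap, and the null minus wild-type difference of these offsets was 0.91 (exact permutation p = 0.1, 2-sided, the smallest that 3 against 3 arrays can give). The corresponding difference was 0.22 at 76.0 kb (exact permutation p = 0.2) and -0.09 at 0.07 kb (exact permutation p = 0.1). With normexp background correction, the log2 difference was 0.27 at the farthest probe and 0.33 at the 3′ probe. The constant of 50 intensity units added there shrinks log2 differences most at dim probes. This alternative therefore cannot decide whether the farthest probe had the larger difference.

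**Figure D2:**
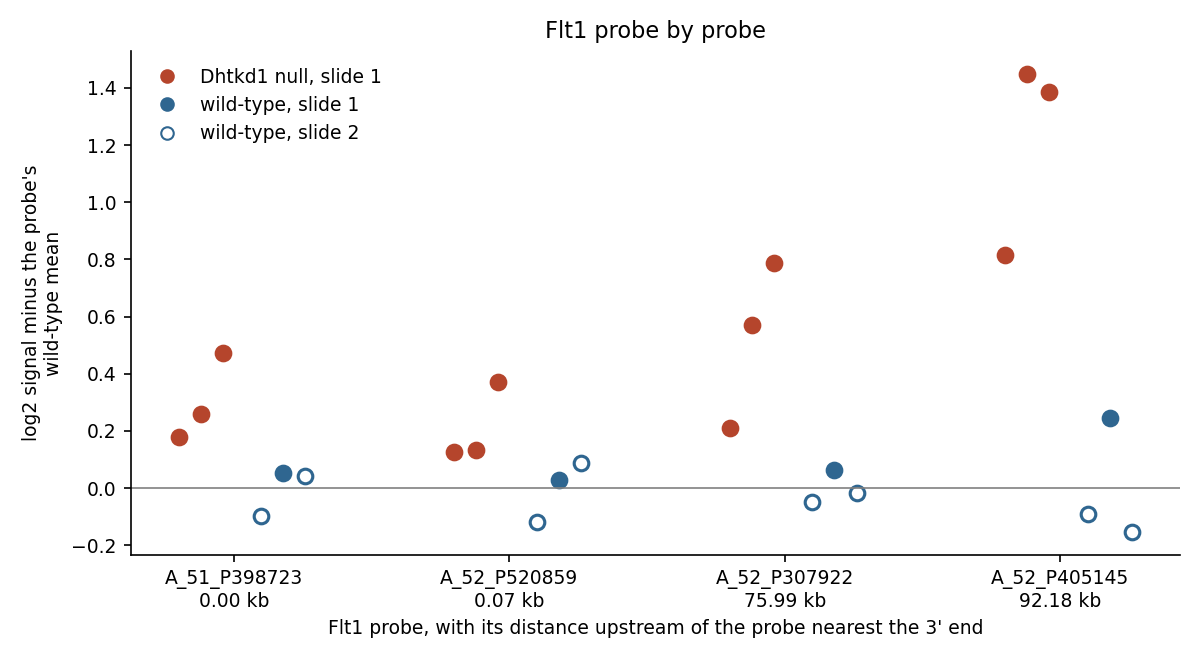
Flt1 signal on each array at the 4 kept probes, in log2 units relative to that probe's wild-type mean, with null points left of wild-type points and filled symbols for slide 1. Probes run along the horizontal axis by distance from the probe nearest the 3′ end, and null points lie above all wild-type points at each, by a mean of 0.30, 0.21, 0.52 and 1.22.

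Kdr encodes VEGF receptor 2, through which VEGF-A drives endothelial growth. Over 10 repeated spots per array its log2 signal was -1.03, -0.59 and -0.43 in null cords, against -0.41, -0.48 and -0.62 in wild-type cords. Null 1 stood below the other 5 arrays, among which null and wild-type were mixed. The log2 difference was -0.18 (SE 0.17, 95% interval -0.60 to 0.24, limma adjusted p = 0.768), -0.21 within slide 1 and -0.01 without null 1. Repeated spots scattered by an SD of 0.05 to 0.08 on an array, so the low value of null 1 was not the reading of a single spot. A second Kdr probe, also with 10 spots, was not well above background on any array.

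Tek encodes TIE2, the angiopoietin receptor of endothelial cells. At its 3′ probe on chromosome 4 (mm9, 94540861 to 94540919) the log2 signal was -1.81, -1.66 and -1.50 in null cords, against -1.66, -1.72 and -1.38 in wild-type cords. The groups overlapped, with wild-type 3 the highest array and null 1 the lowest. The log2 difference was -0.07 (SE 0.13, 95% interval -0.39 to 0.24, limma adjusted p = 0.874), but 0.06 within slide 1. A second probe, 132 kb upstream at 94408487 to 94408546 and taken from the transcript AK053336, gave 0.30 (SE 0.15, limma unadjusted p = 0.0906, adjusted p = 0.639), and 0.31 within slide 1. Over all arrays the probes of Tek had opposite signs, and neither passed.

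Pdgfrb encodes the PDGF receptor through which pericytes are drawn to vessels, and it is also made by fibroblasts of the meninges. At its 1 probe, on chromosome 18, the log2 signal was 0.02, 0.51 and 0.62 in null cords, against 0.80, 0.39 and 1.01 in wild-type cords. Null 1 was the lowest array, and wild-type 1 and 3, both on slide 2, were the highest. Pdgfrb had a log2 difference of -0.36 (SE 0.22, 95% interval -0.91 to 0.20, limma adjusted p = 0.670), and it was -0.01 within slide 1.

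**Figure D3:**
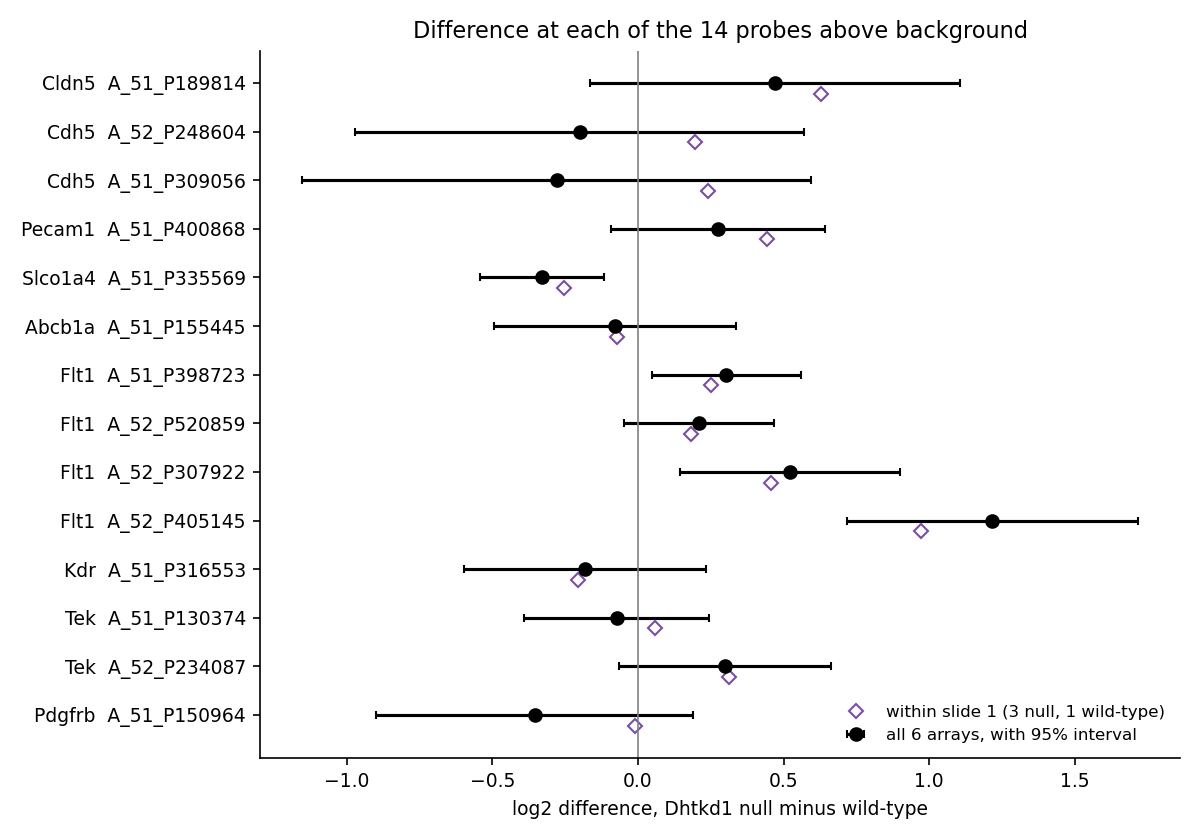
Log2 difference, null minus wild-type, at each of the 14 kept probes, with its 95% interval from limma over all 6 arrays (circles) and the difference within slide 1 (diamonds, with 1 wild-type array). Intervals lie to the right of 0 for 3 of the 4 Flt1 probes and to the left for Slco1a4, before any adjustment for the number of probes, and the slide 1 value has the opposite sign for both Cdh5 probes and the 3′ Tek probe.

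Across arrays, some members moved together whatever the genotype. The mean of the 9 genes, each taken relative to its own mean, was -0.24, 0.05 and 0.16 in null cords and 0.00, -0.12 and 0.15 in wild-type cords. Null 1 was the lowest array and null 3 and wild-type 3 the highest, and the groups differed by -0.02, or by 0.12 within slide 1. Over the 6 arrays, Tek and Cdh5 had r of 0.98, Pdgfrb and Cdh5 0.91, and Tek and Pdgfrb 0.85. Cldn5 and Pecam1 had r of 0.86, while Slco1a4 and Flt1, which separated by genotype in opposite directions, had -0.82. These correlations describe 6 arrays with shared normalization, and no test was made of them.

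**Figure D4:**
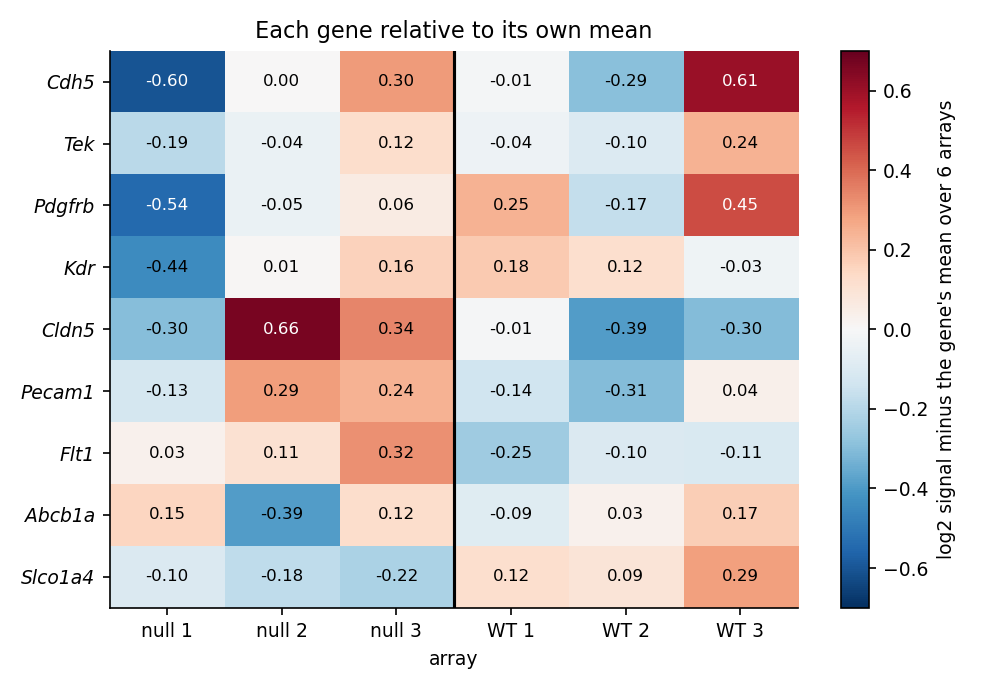
Each gene on each array relative to that gene's mean over the 6 arrays, in log2 units, with null arrays left of the line and wild-type (WT) arrays right of it. Cdh5, Tek and Pdgfrb, at the top, are lowest on null 1 and highest on wild-type 3, whereas Slco1a4, at the bottom, is negative on all null arrays and positive on all wild-type arrays.

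Genes outside the members whose signal over the 6 arrays most resembled the members' mean were Tent5b (r of 0.997), Tnfaip8 (0.994), a transcript with no gene symbol (0.994), Snai1, a transcription factor active in fibroblasts and migrating cells (0.993), and Mtarc1 (0.992). Of all 21438 genes tested, members included, 110 (0.513%) had r above 0.95. Markers of meningeal fibroblasts, all 8 well above background on every array, had list means of -1.82, -0.13 and 0.70 in null cords, against 0.20, -0.41 and 1.46 in wild-type cords, with the same arrays at the extremes as Cdh5. Among them Col1a2, a chain of fibrillar collagen, had a log2 difference of -0.80 (limma adjusted p = 0.708) but 0.055 within slide 1. Ptgds, a prostaglandin synthase of the meninges, had 0.064 (limma adjusted p = 0.970) and 0.37 within slide 1. Whether meningeal tissue in the samples had a part in the values of Cdh5, Tek and Pdgfrb was not tested. Lists of cord cells differed in how much they varied. List means of astrocyte markers (null -0.12 to 0.09, wild-type -0.10 to 0.10) and neuron markers (null -0.02 to 0.09, wild-type -0.12 to 0.02) varied little. Those of oligodendrocyte markers (null -0.15 to 0.07, wild-type -0.29 to 0.29) and microglia markers (null 0.04 to 0.18, wild-type -0.44 to 0.08) had a wider range than the 9 genes.

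**Figure D5:**
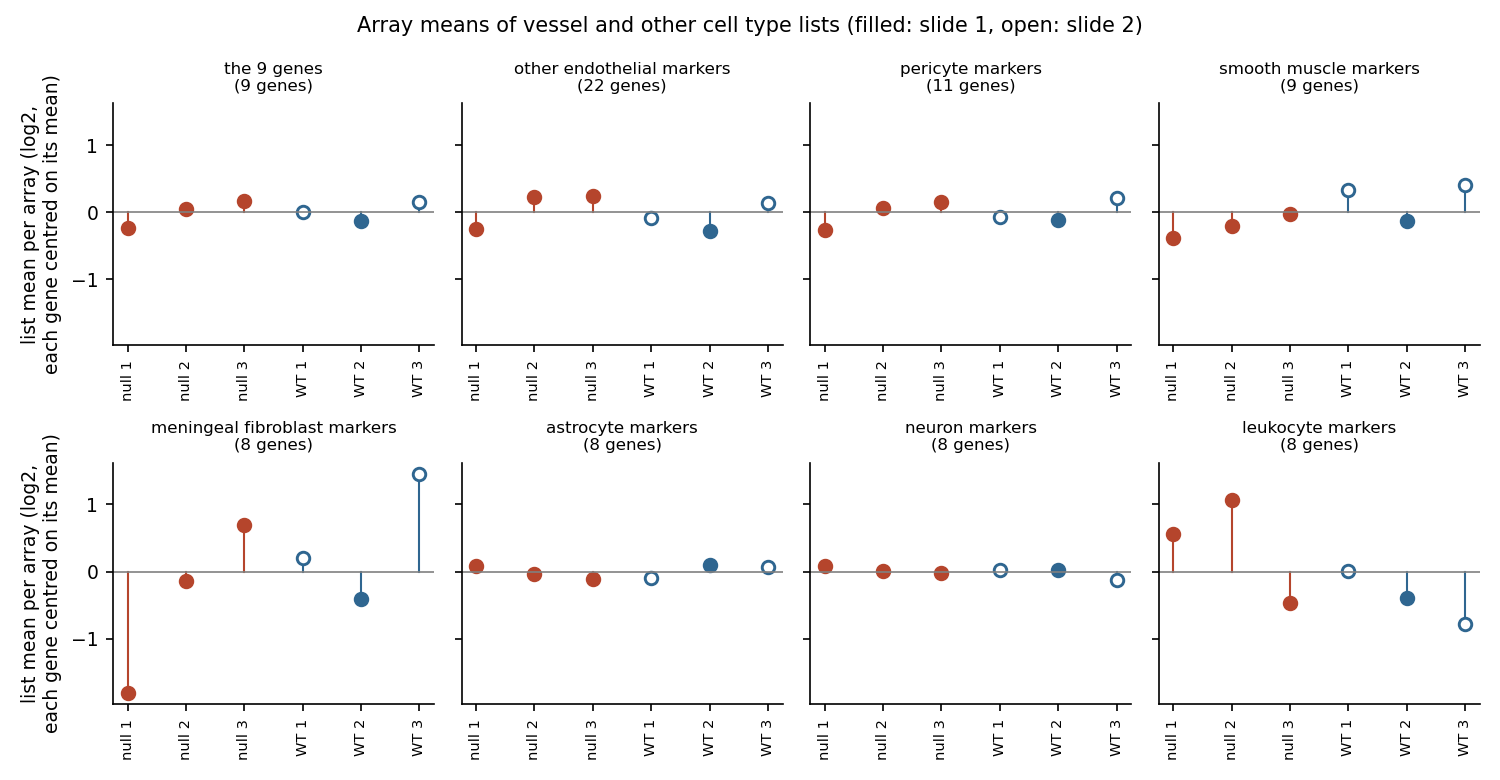
Mean per array of the 9 genes, 3 other vessel lists and 4 lists of other cell types, in log2 units with each gene centred on its own mean, null arrays left of wild-type (WT) arrays and filled points for slide 1. The 9 genes, the other endothelial markers and the pericyte markers are low on null 1 and wild-type 2 and higher on null 3 and wild-type 3, and the meningeal fibroblast list has a wider range, from -1.82 on null 1 to 1.46 on wild-type 3.

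Further genes linked to vessels were described in 10 lists, none of which holds a member. There were 109 genes in all, of which all but 2 could be tested. These genes were read in whole cord, where their signal need not come from vessel cells. By limma 0 of them passed the adjusted threshold (lowest adjusted p = 0.365), 9 were higher and 8 lower at an unadjusted p under 0.05, or 8.41% and 7.48% of them, against 5.92% and 3.01% of all genes, and the median log2 difference was -0.04. A higher mean in null cords was found for 55.9% of all genes. Of the 22 other endothelial markers, 17 had a higher and 5 a lower mean in null cords, with a median of 0.08, and within slide 1 the split was 18 to 4. Podxl, a sialomucin of the luminal face, had a log2 difference of 0.99 (limma adjusted p = 0.529) and 1.47 within slide 1, and Itm2a, a membrane protein, -0.35 (adjusted p = 0.400) and -0.26 within slide 1.

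Barrier transporters pointed both ways, 6 of 15 with a higher and 9 with a lower mean, or 8 and 7 within slide 1. Slc2a1, the glucose transporter of the barrier, had a log2 signal of 4.32, 4.48 and 4.55 in null cords, against 3.86, 3.99 and 4.08 in wild-type cords. All null arrays were higher, with a log2 difference of 0.48 (SE 0.10, limma unadjusted p = 0.00313, adjusted p = 0.365), or 1.39-fold, and 0.46 within slide 1. Slco1c1, a thyroid hormone carrier and a relative of Slco1a4, had 0.43, 0.34 and 0.20 in null cords, against 0.76, 0.85 and 0.67 in wild-type cords. All null arrays were lower, with a log2 difference of -0.43 (SE 0.09, limma unadjusted p = 0.00334, adjusted p = 0.373) and -0.52 within slide 1. Slc22a8, another organic anion transporter of this list and named here after its values were seen, had a log2 difference of -0.37 (limma adjusted p = 0.768) and -0.071 within slide 1, with null 3 above wild-type 1 and 2.

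Junction proteins had 5 higher and 7 lower means of 12, or 7 and 5 within slide 1. Cgn, a tight junction scaffold, had 0.54 (limma adjusted p = 0.423), or 0.72 within slide 1, and Jam2, a junctional adhesion molecule, -0.23 (adjusted p = 0.578), or -0.38 within slide 1. VEGF ligands and other VEGF receptors were split evenly, 4 of 8 each way, or 3 higher and 5 lower within slide 1. Vegfa, the ligand of both Flt1 and Kdr, had a log2 signal of 2.41, 2.40 and 2.69 in null cords, against 1.99, 2.25 and 2.13 in wild-type cords. All null arrays were higher, by a log2 difference of 0.38 (SE 0.12, limma adjusted p = 0.495) and 0.25 within slide 1, and the 3 dimmer Vegfa probes gave 0.37, 0.52 and 0.71. Nrp2, a co-receptor, had -0.16 (adjusted p = 0.589), or -0.086 within slide 1. Of 6 angiopoietin ligands and partners, 3 had a higher and 3 a lower mean, or 5 and 1 within slide 1. Angpt4, a ligand of TIE2, had 0.59 (adjusted p = 0.539), or 0.90 within slide 1, and Tie1, the sister receptor of Tek, -0.36 (adjusted p = 0.678), which was -0.04 within slide 1. PDGF ligands and receptors had 2 higher and 3 lower means of 5, or 3 and 2 within slide 1. Pdgfc had 0.15 (adjusted p = 0.636), or 0.11 within slide 1, and Pdgfa -0.04 (adjusted p = 0.909), or -0.13 within slide 1.

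Of 14 genes of the Wnt signalling that maintains the barrier, 5 had a higher and 9 a lower mean, or 7 and 7 within slide 1. Ndp, which encodes the norrin ligand, had a log2 difference of -0.29 (limma adjusted p = 0.492) without overlap, and -0.34 within slide 1. Apcdd1, a Wnt inhibitor, had -0.39 (adjusted p = 0.492) at its brighter probe, -0.20 there within slide 1, and 0.22 at a dim probe. Pericyte markers had 4 higher and 7 lower means of 11, or 7 and 4 within slide 1. Higd1b had 0.30 (adjusted p = 0.431) and Notch3, the Notch receptor of mural cells, -0.36 (adjusted p = 0.490), each without overlap, and within slide 1 they had 0.26 and -0.26.

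Of 9 smooth muscle markers, 8 had a lower mean in null cords, with a median of -0.38, or 6 within slide 1. Their list mean was lowest on null 1 (-0.38) and highest on wild-type 3 (0.41), the arrays at the ends of the meningeal fibroblast list too, and a part of meningeal tissue in this was not tested. Myh11, the smooth muscle myosin heavy chain, had -0.77 (limma adjusted p = 0.530) and Cnn1, a calponin, -1.11 (adjusted p = 0.569). Within slide 1 these were -0.23 and -0.51. Of 7 genes of leaky or activated endothelium, 5 had a higher and 2 a lower mean, or 6 and 1 within slide 1. Ackr1, a chemokine-binding protein of venules, had 0.79 (adjusted p = 0.524), or 0.29 within slide 1, and Selp, which captures leukocytes, 0.54 (adjusted p = 0.573), or 0.75 within slide 1.

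Promoter sequence from RefSeq (GRCm38.p6) was at hand for 6 of the 9 members, Cldn5, Slco1a4, Abcb1a, Flt1, Kdr and Tek. The 250 bases before each start were searched on both strands for CAGGAA or CCGGAA, cores bound by ETS factors that many endothelial genes use, and for TGACGTCA, the cAMP response element, and these motifs share no full match. CAGGAA or CCGGAA stood in 2 of the 6, Kdr and Tek, and in 35.1% of 32851 mouse promoters of the same length, and TGACGTCA in Flt1 and in 1.55% of all. Other runs holding GGAA, some of which stand in the Flt1 window, were not searched for, so the count does not cover all possible ETS sites. The Flt1 window, chr5:147726012-147726261 on the minus strand, is shown as that of the member with the most separated probes, and the Tek window, chr4:94739039-94739288 on the plus strand, as that of a member without such a separation. Capitals mark the matches, which describe the letters and not a bound site.
Flt1 promoter: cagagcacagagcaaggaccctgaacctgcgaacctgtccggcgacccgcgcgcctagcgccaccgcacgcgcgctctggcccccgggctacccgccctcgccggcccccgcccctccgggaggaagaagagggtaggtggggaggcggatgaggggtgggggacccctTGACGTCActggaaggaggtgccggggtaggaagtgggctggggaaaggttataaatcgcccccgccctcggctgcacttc
Tek promoter: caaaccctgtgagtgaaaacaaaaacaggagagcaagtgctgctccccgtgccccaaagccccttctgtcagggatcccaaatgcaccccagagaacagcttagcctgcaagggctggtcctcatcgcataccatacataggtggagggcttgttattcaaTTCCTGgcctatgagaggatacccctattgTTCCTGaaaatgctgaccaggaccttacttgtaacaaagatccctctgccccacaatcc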

How the data were processed

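Agilent 1-colour arrays of 3 Dhtkd1 null and 3 wild-type spinal cords were analysed, grouped by the labels. The deposited scanner files hold spot intensity from Feature Extraction 10.7.3.1, background-subtracted and detrended within each array per the file headers, with probe positions on mm9. The deposited value table holds log2 values whose method the labels do not state. Its columns share 1 set of quantiles, and it served as an alternative only.

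Log2 processed intensity minus the array's 75th percentile over non-control spots was used, without outlier spots, with repeated spots averaged. Probes well above background on at least 3 of 6 arrays were kept (33190), and each gene was represented by its kept probe of highest mean (21438). Null minus wild-type was fitted with limma 3.58.1 (lmFit, eBayes, 2-sided) in R 4.3.3, without covariates, adjusted by Benjamini-Hochberg over all genes or probes. The fitting was tested on simulated data. Because the labels do not say that replicates are separate animals, p-values measure the spread between samples as labelled, and 3 arrays per group limit the precision. Slides were read from the file headers.

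The members and lists were chosen with earlier results of these data known. Named were all members, Dhtkd1, the 2 genes of smallest p in each vessel list, the 2 of highest mean signal in lists of other cell types, and the 5 genes most like the members' mean. Some genes that this rule named are not reported here. Sequences are the deposited probes' first 30 bases and RefSeq promoters. Exon annotation of mm9 was not used here. Alternatives were other normalizations, background correction, filters, slide and replicate blocks, eBayes options, all probes averaged, and leaving out each array.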

Additional observations from a re-analysis of the deposited data

How the results depend on the processing

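No member passed an adjusted p of 0.05 in any of the alternatives, where the lowest adjusted p of a member was 0.150, for the Flt1 probe farthest upstream without null replicate 1. Of 261 member values under the alternatives, 248 kept their sign and 13 were reversed. Many of these values are not separate checks of the sign. The other filters, outlier spots kept, the replicate block and the eBayes options left each member's estimate as it was. Slide as a fixed block and slide 1 alone gave the same estimate and count separately. Slco1a4 ranged from -0.38 to -0.25, and the 3′ probe of Flt1 from 0.22 to 0.37, with 0.56 for the mean over its kept probes. With slide as a fixed block or in slide 1 alone, the difference turned to 0.19 for Cdh5, 0.24 for its dimmer probe and 0.060 for Tek, while slide as a random block left these at -0.20, -0.28 and -0.072. The mean of its probes gave 0.11 for Tek. When 1 array was left out, Cdh5 ranged from -0.40 to 0.054 and its dimmer probe from -0.54 to 0.024, Tek from -0.15 to 0.029 and Abcb1a from -0.18 to 0.097. Cdh5 was positive without wild-type 3 (0.054) and without null 1 (0.052), its dimmer probe without wild-type 3, Tek without wild-type 3 and without null 1 (0.0029), and Abcb1a without null 2. The cause of these reversals was not tested.

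The count of genes passing, 0 by limma with 1915 at an unadjusted p under 0.05, was 1 under quantile normalization, median centring, normexp, the authors' value table and the filter on all 6 arrays, 4 with trend and robust options, and 0 to 2 when 1 array was left out. The count of probes passing, 0 with 2719 unadjusted, was 1 with normexp, 7 with trend and robust options, and 0 to 4 when 1 array was left out. A replicate block gave 0 genes (lowest adjusted p 0.465) and 0 probes. Same-numbered null and wild-type samples had deviations that correlated at -0.02, -0.11 and 0.33, and differently numbered ones at -0.24 to 0.27. With 3 arrays per group these values cannot decide whether samples were paired. The labels give a replicate number and a numbered sample title, but state no pairing. Signal over background limits the Flt1 probe farthest upstream, whose difference of 1.22 was 0.27 with normexp, where the 3′ probe had 0.33. The constant of 50 intensity units added in normexp by itself shrinks the differences of dim probes, so these values cannot decide the size at that probe.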

Other observations

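Markers of other cell types that the dissected cord could hold were also read, with every list mean taken over genes centred on their own level. No gene of these lists passed the adjusted threshold by limma. Over all genes tested, 55.9% had a higher mean in null cords, and 5.92% were higher and 3.01% lower at an unadjusted p under 0.05. Leukocyte markers had 7 of 8 higher means (1 at an unadjusted p under 0.05), and 7 of 8 within slide 1. Their list means were 0.56, 1.07 and -0.46 in null cords and 0.00, -0.39 and -0.78 in wild-type cords, so the groups overlapped. S100a8 and S100a9, calcium-binding proteins of neutrophils, had log2 differences of 1.36 and 1.12. Red blood cell markers had 6 of 7 higher means (1 unadjusted), and 6 of 7 within slide 1. Their list means overlapped too, at 0.36, 0.20 and 0.05 in null cords and 0.21, -0.59 and -0.24 in wild-type cords, and the globin genes Hba-a1 and Hbb-bt had 0.18 and 0.43. Microglia markers had 7 of 8 higher means (3 unadjusted), and 6 of 8 within slide 1, and Csf1r, a receptor of microglia, had a log2 difference of 0.13.

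Schwann cell markers had 7 of 7 lower means in null cords (1 unadjusted), but 2 of 7 within slide 1. Their list means were -1.18, 0.10 and -0.15 in null cords and 1.70, -0.65 and 0.16 in wild-type cords, with wild-type 1, on slide 2, the highest array. Pmp22, a peripheral myelin protein, had -0.76 over all arrays but 0.15 within slide 1. Mal had -0.07 and, unlike the list mean, was lowest on wild-type 1. Meningeal fibroblast markers had 7 of 8 lower means (0 unadjusted), but 3 of 8 within slide 1. Adipocyte markers had 6 of 6 and skeletal muscle markers 7 of 8 higher means (0 unadjusted in both), but 0 of either list within slide 1. Fabp4 had 0.98 over all arrays and -0.73 within slide 1, Cfd 1.19 and -0.65, Myh4 0.80 and -0.43, and Tnni2 0.52 and -0.76.

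Astrocyte markers had 4 of 8 higher means (1 higher unadjusted), and 5 of 8 within slide 1, with Slc1a2 at 0.10 and Aldoc at 0.12. Oligodendrocyte markers had 2 of 8 higher means (0 unadjusted), and 0 of 8 within slide 1, with Mbp at -0.05. Neuron markers had 5 of 8 (0 unadjusted), and 5 of 8 within slide 1, with Snap25 at 0.03 and Nefl at -0.12.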
